A study of Danio rerio with 2 samples.

Results

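The genes described here are *defbl1*, *defbl2*, *apoda.1* and *gpnmb*, 4 of the 25432 genes counted in cells sorted from zebrafish embryos at 36 hours post fertilization (hpf). They were chosen by name as iridophore effector genes, with their counts in these cells already known, and 1 of them, *defbl2*, was included because its counts came from the mutant library only. Their places among the cell classes and their differences between the libraries are therefore a description. The files identify *defbl1* as ENSDARG00000075161, *defbl2* as ENSDARG00000096380, *apoda.1* as ENSDARG00000060345 and *gpnmb* as ENSDARG00000062688. In the RefSeq gene order of zebrafish, *defbl1* and *defbl2* lie apart on chromosome 21, *apoda.1* on chromosome 2 and *gpnmb* on chromosome 19.

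Iridophores are the reflective pigment cells of zebrafish. They arise from the neural crest, as do the black melanophores and the yellow xanthophores, and they mirror light with stacks of guanine crystals, for which they make purines in quantity. The gene *pnp4a* encodes a purine nucleoside phosphorylase used as an iridophore marker, *ltk* encodes the receptor tyrosine kinase that iridophores require, and *tfec* encodes a transcription factor of the lineage related to Mitfa. Beta-defensins, the family to which *defbl1* and *defbl2* belong, are small secreted peptides known for antimicrobial activity. Apolipoprotein D proteins such as the product of *apoda.1* are secreted lipocalins that bind small lipophilic molecules. The glycoprotein encoded by *gpnmb* is a membrane protein related to the melanosome matrix protein Pmel.

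The study asked what the glycosyltransferase gene *mgat4b*, whose product adds a branch to N-linked glycans, does in developing melanocytes. Sorting was on green fluorescent protein (GFP) driven by the *mitfa* promoter, and RNA was profiled with 10x Genomics 3′ chemistry, in which unique molecular identifiers (UMIs) count captured molecules. The control group and the *mgat4b* mutant group, both at 36 hpf, had 1 library each. No other treatment is given for either group in the labels used here. The study's methods name phenylthiourea in embryo water to keep melanin from hiding GFP, without saying whether the sorted embryos had it. By the study, mutants were made by injecting embryos with a plasmid that carried Cas9 and GFP under *mitfa* promoters and guide RNAs against *mgat4b*. Its controls were nontargeting controls, injected with the Cas9 and GFP plasmid carrying a nontargeting guide RNA. The targeting was thus somatic and mosaic, and the number of pooled embryos is not given in the sources used here.

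The control library held 1923 cell barcodes and 17502003 UMIs, and the mutant library 4120 barcodes and 31032783 UMIs. After filtering, 1771 control and 3860 mutant cells remained, with median depths of 4919 and 6480 UMIs per cell. The labels call all cells melanocytes, but clustering gave 25 clusters, of which 16 fell into 14 named classes that ranged from epidermis-like to neuron-like, and 52.7% of the control and 29.9% of the mutant cells stayed in unnamed clusters. The targeted gene *mgat4b* was at 80.8 counts per 1000000 UMIs (CPM, interval 76.6 to 85.1) in control cells and 64.3 CPM (61.5 to 67.2) in mutant cells, a ratio of 0.796 (0.743 to 0.854). With 1 library per group there is no test, and each interval, at 95%, covers counting error only and not the spread between embryos or libraries.

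Iridophore-like cells formed 1 cluster of 69 cells, 17 from the control and 52 from the mutant, although the members were left out of the clustering. The class made up 0.960% of the control cells (Clopper-Pearson interval 0.560 to 1.53%) and 1.35% of the mutant cells (1.01 to 1.76%). The ratio of these shares was 1.40, with an interval of 0.814 to 2.42 that includes 1 and covers the sampling of cells only. With 1 library per group a difference in the share between the groups could not be tested. The shares are of all passing cells, of which 52.7% in the control and 29.9% in the mutant were in unnamed clusters. The largest unnamed cluster had 464 control and 99 mutant cells, at a median depth of 709 UMIs. The ratio thus depends on whether unnamed cells are counted. The purine gene *pnp4a* had a UMI in 94.1% of the control and 94.2% of the mutant iridophore-like cells, and *ltk* in 88.2% and 94.2%. All 9 iridophore markers were present in the class in both libraries, with summed levels of 8464 CPM in control cells and 8294 CPM in mutant cells. The control cells of the class were deeper, with a median of 21210 UMIs against 12285 in the mutant.

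The genes *defbl1*, *apoda.1* and *gpnmb* led the iridophore-like cluster, at ranks 1 to 3 by fold over the other cells. The class held 95.9% of all *defbl1* UMIs, 94.4% of the *apoda.1* UMIs and 90.8% of the *gpnmb* UMIs. Together the 3 genes gave 1.11% of all UMIs of the control iridophore-like cells and 1.27% of those of the mutant cells. Cell by cell this share ran from 0.114 to 2.44% in the control, with a median of 1.15%, and from 0.388 to 2.80% in the mutant, with a median of 1.2%. All 3 genes were detected together in 68 of the 69 cells. The fourth gene, *defbl2*, had 2.53% of its UMIs in the class (1.02 to 5.14%), which were 7 UMIs. Its level in the mutant cells of the class was 10.9 CPM (4.38 to 22.5), beside 9.10 CPM over all mutant cells. In these libraries *defbl2* was thus not concentrated in iridophore-like cells as the other 3 genes were.

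**Figure D1:**
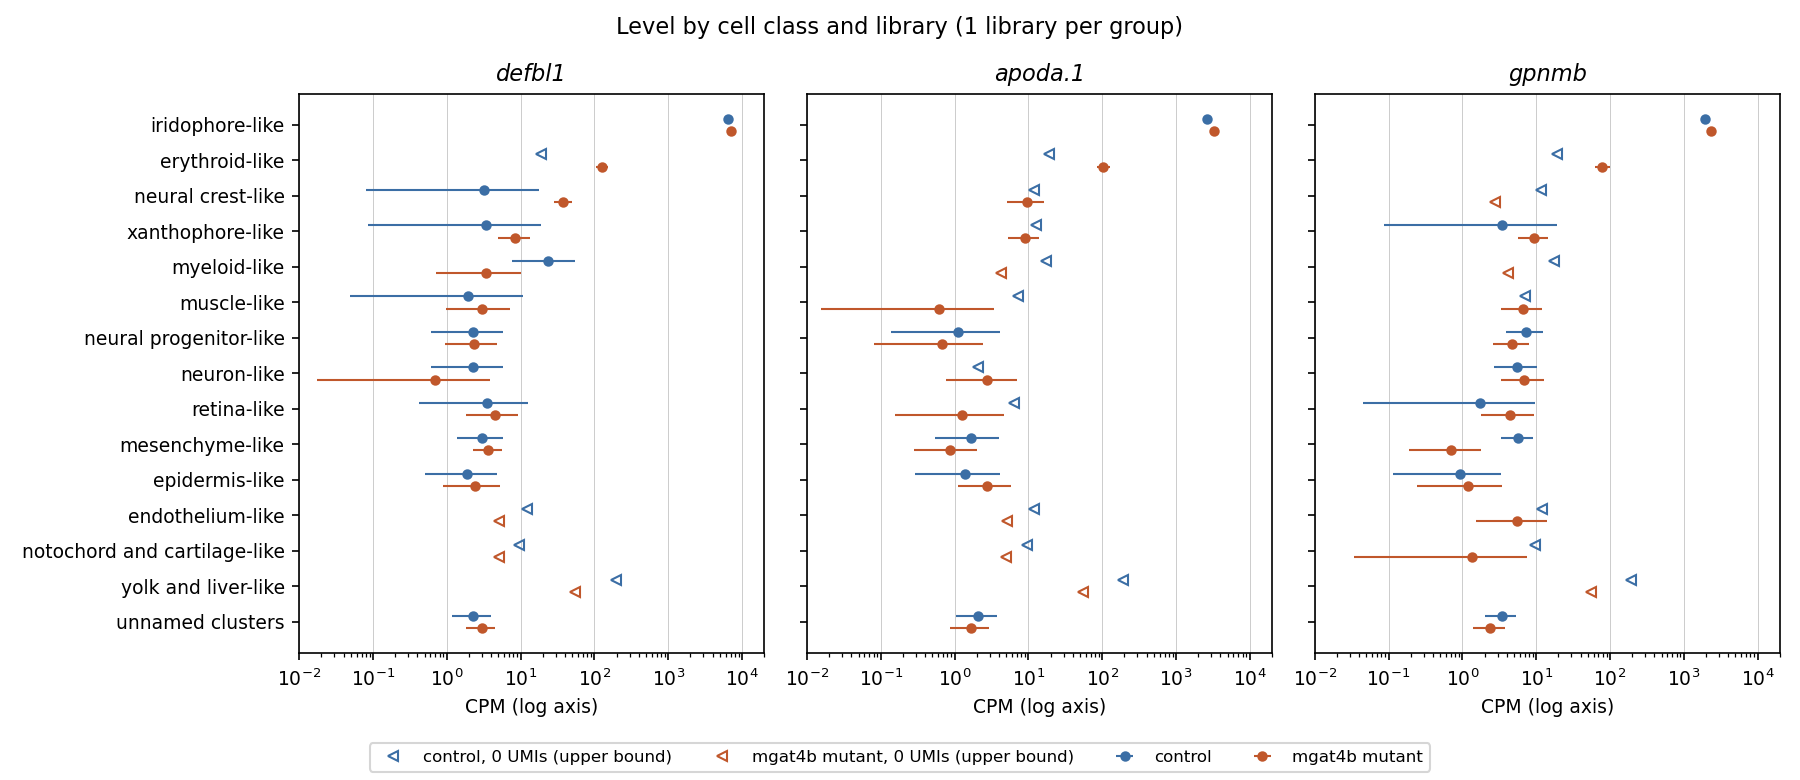
Level of *defbl1*, *apoda.1* and *gpnmb* in CPM (log axis) in each cell class, with the control in blue and the *mgat4b* mutant in orange, 1 library each. Points are summed levels with 95% Poisson intervals, and open triangles mark the upper bound where a library had 0 UMIs. In all 3 panels the iridophore-like class lies far to the right of every other class, at 6464 and 7164 CPM for *defbl1*.

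The defensin-like gene *defbl1* had 2431 control and 4859 mutant UMIs over all cells. In iridophore-like cells its level was 6464 CPM (6207 to 6728) in control cells and 7164 CPM (6958 to 7374) in mutant cells, from 2388 and 4601 UMIs. Every cell of the class had at least 1 UMI. The 17 control cells held between 2 and 272 UMIs each with a median of 168, and the 52 mutant cells between 1 and 290 with a median of 74. Scaled to the UMIs of the same cell, the control ran from 929 to 15453 CPM with a median of 6081 CPM, and the mutant from 430 to 18010 CPM with a median of 6102 CPM. The cells of the libraries thus overlapped over nearly the whole range, and the lower UMI counts of the mutant cells went with their lower depth.

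The lipocalin gene *apoda.1* had 1003 control and 2241 mutant UMIs over all cells. Its level in iridophore-like cells was 2658 CPM (2494 to 2830) in control cells and 3239 CPM (3101 to 3381) in mutant cells. Every cell of the class had at least 1 UMI of *apoda.1* too, with 1 to 136 UMIs and a median of 54 in the control cells, and 1 to 92 UMIs and a median of 40 in the mutant cells. The median cell stood at 2556 CPM in control cells and 2908 CPM in mutant cells, within ranges of 57.2 to 4800 and 685 to 7766 CPM. The ranges overlapped again, and the control cells at 57.2 and 465 CPM lay below all mutant cells. In RefSeq, on another assembly than that of the counts, the gene overlaps its paralog *apoda.2*, which had 14 control and 35 mutant UMIs. Whether the counted gene models overlap was not tested, and how reads were shared between *apoda.1* and *apoda.2* is uncertain.

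The glycoprotein gene *gpnmb* had 779 control and 1665 mutant UMIs over all cells. Its level in iridophore-like cells was 1941 CPM (1801 to 2088) in control cells and 2337 CPM (2220 to 2458) in mutant cells. It was detected in 16 of the 17 control and in all 52 mutant cells of the class, with 0 to 100 UMIs and a median of 39 in the control, and 1 to 77 UMIs and a median of 26 in the mutant. The median cell stood at 2204 CPM in control cells and 2303 CPM in mutant cells, and 1 mutant cell reached 10753 CPM of *gpnmb* against a highest control cell of 4376 CPM.

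The control cell without *gpnmb* was also the lowest of the 69 for the 3 genes together. It had 17483 UMIs, of which 19 were *defbl1* and 1 was *apoda.1*. Of the iridophore markers it had 0 *pnp4a* and 0 *lypc* UMIs, but 6 of *tfec* and 4 of *ltk*. It also had 26 UMIs of *alx4a*, a homeobox gene also detected in mesenchyme-like cells here. The summed mesenchyme markers of the class were at 414 CPM in control cells and 38.9 CPM in mutant cells. The highest control cell for these markers, at 3533 CPM, was not the cell without *gpnmb*. Xanthophore markers were at 744 and 375 CPM and epidermis markers at 774 and 399 CPM, also higher in the control cells. The median cell for xanthophore markers went the other way, at 259 CPM in control cells and 333 CPM in mutant cells. Other sets were higher in the mutant cells, such as melanophore markers at 406 and 617 CPM and neuron markers at 46.0 and 99.6 CPM. The median cell for melanophore markers was at 372 CPM in control cells and 511 CPM in mutant cells. For neuron markers it went the other way, at 35.6 and 0 CPM, and the highest mutant cell was at 2833 CPM. The part of these transcripts in the members' levels was not tested.

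**Figure D2:**
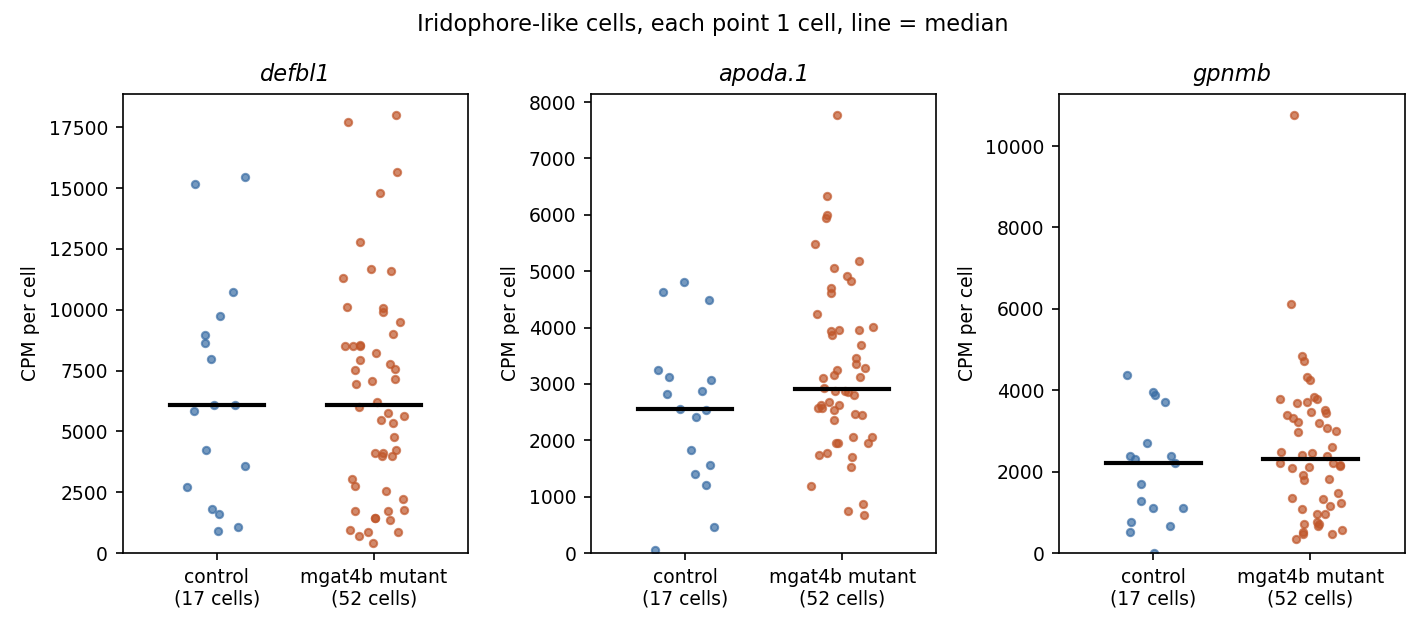
Level per iridophore-like cell, in CPM of that cell's UMIs, for *defbl1*, *apoda.1* and *gpnmb* in 17 control cells (blue) and 52 *mgat4b* mutant cells (orange). Each point is 1 cell and each line the median, which for *defbl1* lies at 6081 CPM in control cells and 6102 CPM in mutant cells.

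The libraries differed little in these 3 genes within the class. The mutant over control ratio of summed CPM was 1.11 (1.05 to 1.16) for *defbl1*, 1.22 (1.13 to 1.32) for *apoda.1* and 1.2 (1.1 to 1.32) for *gpnmb*. A fold of at least 2, with at least 50 UMIs and an interval that excludes 1, was used as the size rule for calling a gene. None of the 3 genes passed it in the class, where 4.31% of 2715 genes were called higher in the mutant and 3.17% lower. With scaling by the trimmed mean of M-values (TMM) these calls moved to 178 genes higher and 48 lower, from 117 and 86, and the median log2 ratio of all genes in the class moved from −0.06 to 0.12. Over all cells the ratios were 1.12 for *defbl1* (1.07 to 1.18), 1.25 for *apoda.1* (1.16 to 1.35) and 1.2 for *gpnmb* (1.1 to 1.31). A single random draw of mutant cells to the control number turned the direction for *defbl1*, at 0.759 (0.711 to 0.809), but not for *apoda.1*, at 1.15 (1.05 to 1.26). For *gpnmb* it gave 0.986, with an interval of 0.887 to 1.1 that includes 1.

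To compare shares of cells with a UMI across depths, each cell was thinned to 836 UMIs, which left out 441 control and 275 mutant cells. At this depth *defbl1* was detected in 88.2% of the control and 88.5% of the mutant iridophore-like cells, *apoda.1* in 82.4% and 88.5%, and *gpnmb* in 76.5% and 90.4%. The intervals of the libraries overlapped for each gene, for example 50.1 to 93.2% against 79.0 to 96.8% for *gpnmb*. In neuron-like cells, used for the background share, the thinned shares were 0.877% and 0% for *defbl1*, 0% and 0.909% for *apoda.1*, and 1.75% and 0.909% for *gpnmb*. Whether the *gpnmb* UMIs of neuron-like cells came from those cells or from free RNA was not tested, so that share may be no background for *gpnmb*. The neuron-like cells had median depths of 10179 control and 5526.5 mutant UMIs before thinning. Without thinning, 100% of the iridophore-like cells had *defbl1* in both libraries, against 3.45% of the control and 0.450% of the mutant neuron-like cells.

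Within the class the 3 genes varied together, with higher coefficients over the control than over the mutant cells, a difference that was not tested. Spearman's rho between the CPM of *defbl1* and *apoda.1* was 0.84 over 17 control cells and 0.43 over 52 mutant cells. It was 0.64 and 0.35 between *defbl1* and *gpnmb*, and 0.68 and 0.35 between *apoda.1* and *gpnmb*. The cells of a library share its preparation, and each cell's values share that cell's total, so these are descriptions. Of the other iridophore genes, *pnp4a* had a rho of 0.93 and 0.61 with *defbl1*, and *lypc*, which encodes a small protein of the Ly6 family, had 0.75 and 0.62 with *gpnmb*. By contrast *tfec*, the transcription factor gene, had 0.16 and 0.28 with *defbl1*, and *ltk*, the receptor gene, had 0.25 and −0.20. The homeobox gene *alx4a* had 0.32 and 0.38 with *defbl1*. These genes differ in counts, with 75 control and 181 mutant UMIs of *tfec* in the class, 118 and 349 of *ltk* and 158 and 410 of *lypc*. There were 524 and 872 of *alx4a* and 1270 and 1712 of *pnp4a*, and the part of counting error in the coefficients was not tested. The depth of the cells had a rho of 0.00 and 0.28 with the CPM of *defbl1*.

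**Figure D3:**
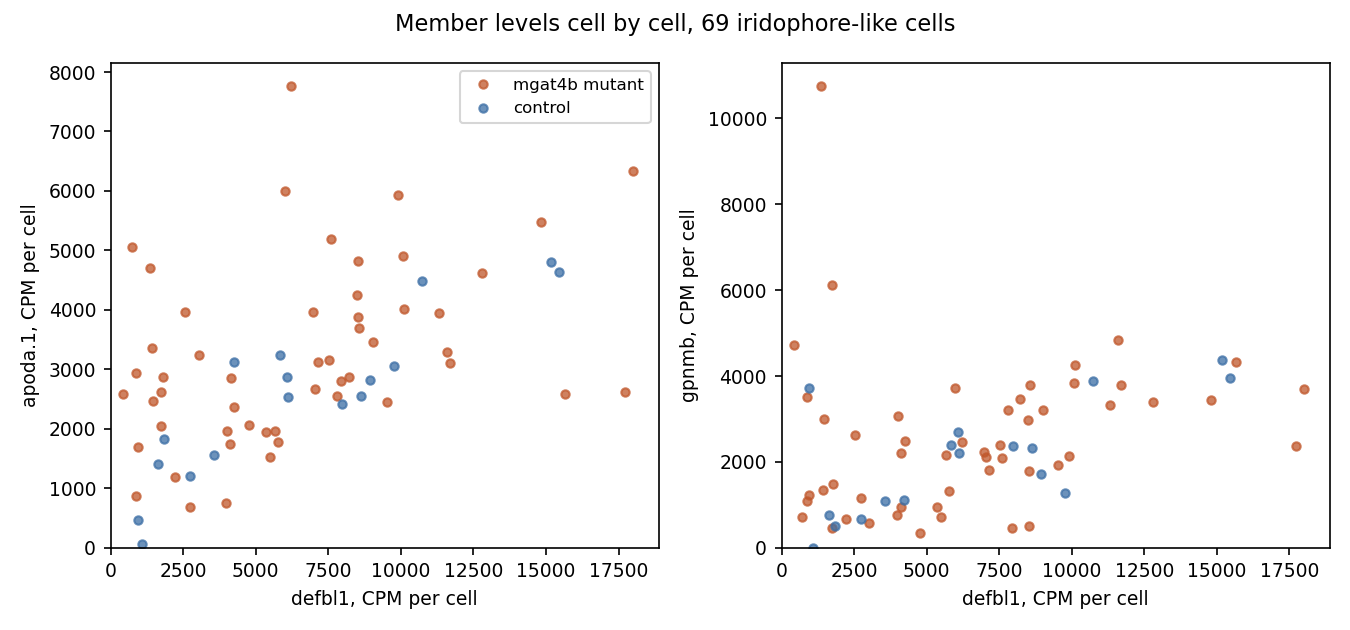
CPM of *apoda.1* (left) and *gpnmb* (right) against CPM of *defbl1* in the 69 iridophore-like cells, 17 control (blue) and 52 *mgat4b* mutant (orange). Each point is 1 cell, and for *apoda.1* the control points follow the rank of *defbl1* more closely (rho 0.84) than the mutant points do (rho 0.43).

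Outside the class *defbl1* was low, at 2.57 CPM (1.86 to 3.46) in control cells and 8.66 CPM (7.63 to 9.78) in mutant cells, from 43 and 258 UMIs, a ratio of 3.37 (2.43 to 4.76). For *apoda.1* the levels were 1.26 CPM (0.778 to 1.92) and 5.40 CPM (4.60 to 6.30), from 21 and 161 UMIs, a ratio of 4.30 (2.72 to 7.14). For *gpnmb* they were 3.71 CPM (2.84 to 4.75) and 5.50 CPM (4.69 to 6.41), from 62 and 164 UMIs, a ratio of 1.48 (1.1 to 2.02). Much of the mutant excess sat in 4 mutant cells with at least 10 UMIs of 1 of these genes. Without them the ratio was 1.35 (0.936 to 1.97) for *defbl1*, 1.26 (0.738 to 2.22) for *apoda.1* and 0.735 (0.522 to 1.04) for *gpnmb*, an alternative chosen after the data were seen.

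Those 4 cells differed in the markers they carried. A pair of them were erythroid-like, with 29189 and 53290 UMIs, of which 10728 and 25472 were from haemoglobin genes. The shallower of the pair had 66 *defbl1*, 43 *apoda.1* and 34 *gpnmb* UMIs and the deeper had 51, 53 and 39, and each had all 9 iridophore markers. The neural crest-like cell had 11686 UMIs, with 32 of *defbl1*, 4 of *apoda.1* and 0 of *gpnmb*, and 6 iridophore markers. The neural crest markers of this cell were not counted. The xanthophore-like cell had 11616 UMIs, with 6 of *defbl1*, 14 of *apoda.1* and 10 of *gpnmb*, and 8 xanthophore but 2 iridophore markers. A count of 2 iridophore markers was found in 496 cells outside the class. Whether any of the 4 barcodes held more than 1 cell was not tested.

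**Figure D4:**
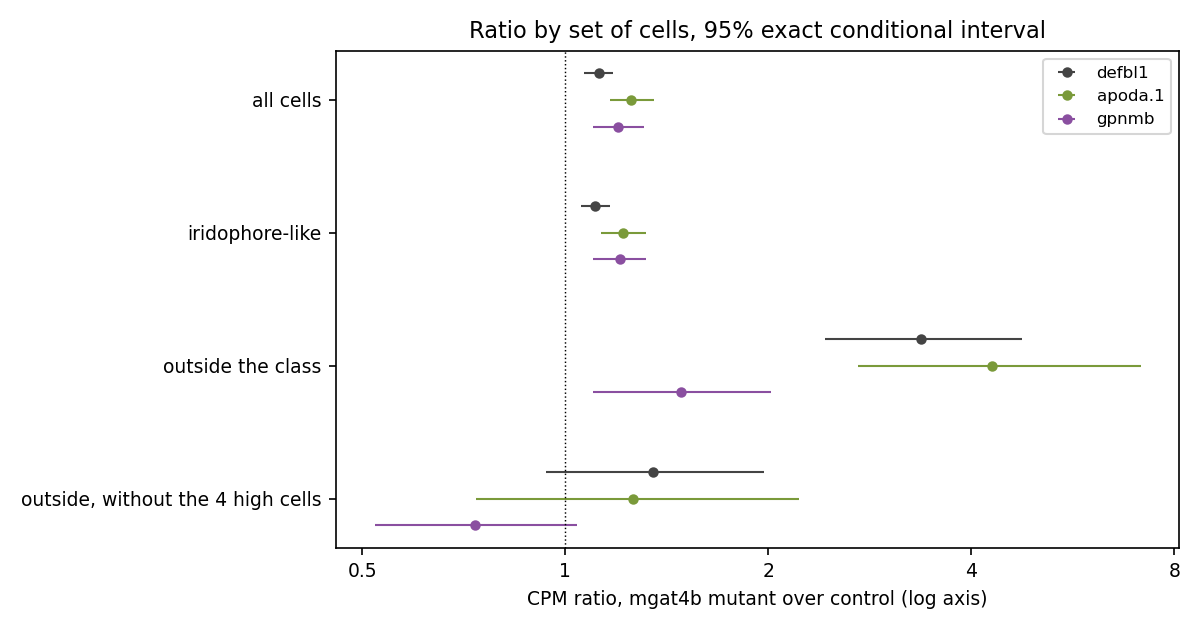
Ratio of CPM, *mgat4b* mutant over control (log axis), for *defbl1*, *apoda.1* and *gpnmb* in 4 sets of cells. Points are ratios of summed CPM and bars 95% exact conditional intervals, with 1 library per group. The ratios outside the class, 3.37, 4.30 and 1.48, fall to 1.35, 1.26 and 0.735 without the 4 high cells.

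By class, *defbl1* came next in erythroid-like cells, where all 118 UMIs were in 3 mutant cells and the 8 control cells had none, and then in neural crest-like cells. Neural crest-like cells had 1 control and 51 mutant UMIs of *defbl1*, a ratio of 11.8 with an interval of 2.03 to 477, and 1 mutant cell held 32 of the 51. Myeloid-like cells went the other way, with 5 control and 3 mutant UMIs of *defbl1*, at 23.3 and 3.43 CPM and a ratio of 0.147 (0.0229 to 0.757). Without the cell with the most *defbl1* UMIs in each library that ratio was 0.164 with an interval of 0.0137 to 1.43, which includes 1. From xanthophore-like cells, at 7.85 CPM over both libraries, down to neuron-like cells at 1.55 CPM, each class overlapped its neighbour in the order. No *defbl1* UMI was seen in endothelium-like, notochord and cartilage-like or yolk and liver-like cells, where the upper bounds were 3.60, 3.29 and 42.7 CPM.

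For *apoda.1*, erythroid-like cells again came second, at 86.2 CPM over both libraries, with all 96 UMIs in 2 mutant cells. Xanthophore-like cells had 19 mutant UMIs and neural crest-like cells 13, with 0 control UMIs of *apoda.1* in either, and 14 of the 19 were in 1 cell. The other classes lay at or under 2.15 CPM of *apoda.1*, with overlapping intervals.

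Outside iridophore-like cells *gpnmb* UMIs were few and scattered. After erythroid-like cells, whose 73 UMIs sat in 2 mutant cells, *gpnmb* was at 8.67 CPM in xanthophore-like, 6.19 CPM in neuron-like, 5.68 CPM in neural progenitor-like and 5.09 CPM in muscle-like cells over both libraries, and each of these classes overlapped its neighbour. Of the 21 *gpnmb* UMIs of xanthophore-like cells, 10 were in the single high cell described above. Neuron-like cells had 10 *gpnmb* UMIs in each library and neural progenitor-like cells 13 and 14. In muscle-like cells 11 mutant UMIs were spread over 10 of 86 cells. Per 100 UMIs of *defbl1* there were 31.7 of *gpnmb* in iridophore-like cells, but 400 in neuron-like and 245.5 in neural progenitor-like cells. The last 2 values rest on 5 and 11 *defbl1* UMIs, against 6989 in iridophore-like cells. Neural crest-like and myeloid-like cells had 0 *gpnmb* UMIs in both libraries.

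Mesenchyme-like cells had 17 control and 4 mutant UMIs of *gpnmb*, at 5.75 CPM (3.35 to 9.20) and 0.693 CPM (0.189 to 1.77), a ratio of 0.121 (0.0295 to 0.370). Of the 17, 7 were in 1 control cell. Without the cell with the most *gpnmb* UMIs in each library 10 and 2 UMIs of *gpnmb* were left and the ratio was 0.102 (0.0108 to 0.477).

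The second defensin-like gene, *defbl2*, showed another pattern. It had 0 UMIs in all 1923 control barcodes and 282 in the 4120 mutant barcodes, of which 277 were in cells that passed the filter. The mutant level was 9.10 CPM, 51.8 times a control floor of 3 UMIs over the library, while the exact conditional interval of the ratio started at 41.9. At the mutant level the control would have held 155.5 UMIs. Of the 18119 genes with at least 50 UMIs, 4.09% were called higher in the mutant by the size rule and 5.98% lower (741 and 1083 genes, or 980 and 720 with TMM scaling), and *defbl2* was the only member called, as its choice by this contrast fixes. No more than 3 of these genes, 0.0166%, had 0 control UMIs. The others were *sult5a1*, with 100 mutant UMIs in 47 cells, and *ccl20a.3*, with 63 in 11 cells. Among the 2715 genes tested in iridophore-like cells 2 (0.0737%) had 0 control UMIs, and with 7 UMIs there *defbl2* was not among the genes tested.

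In the mutant library *defbl2* was thin and wide. It was found in 244 cells, of which 214 had 1 UMI, 30 had 2 or more and none had more than 4, so no group of high cells carried it. It had UMIs in 13 of the 14 named classes. Neuron-like cells were at 13.2 CPM (7.94 to 20.6), epidermis-like cells at 12.3 CPM (8.37 to 17.5), iridophore-like cells at 10.9 CPM (4.38 to 22.5), mesenchyme-like cells at 10.4 CPM (7.93 to 13.4) and xanthophore-like cells at 10.3 CPM (6.48 to 15.7). At the low end muscle-like cells were at 2.43 CPM (0.662 to 6.22) and erythroid-like cells at 2.17 CPM (0.263 to 7.84). Neighbours in this order overlapped throughout. However, the intervals of neuron-like, epidermis-like and mesenchyme-like cells did not reach those of muscle-like or erythroid-like cells. That of xanthophore-like cells did not reach that of muscle-like cells. The unnamed clusters held 79 of the *defbl2* UMIs, 28.5%, and 1 of them, of 64 mutant cells, was at 22.5 CPM (12.6 to 37.1), above every named class, with *defbl2* in 18.8% of its cells. That cluster was singled out after its value was seen. The *defbl2* UMIs of iridophore-like cells numbered 7, in 6 of the 52 mutant cells.

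**Figure D5:**
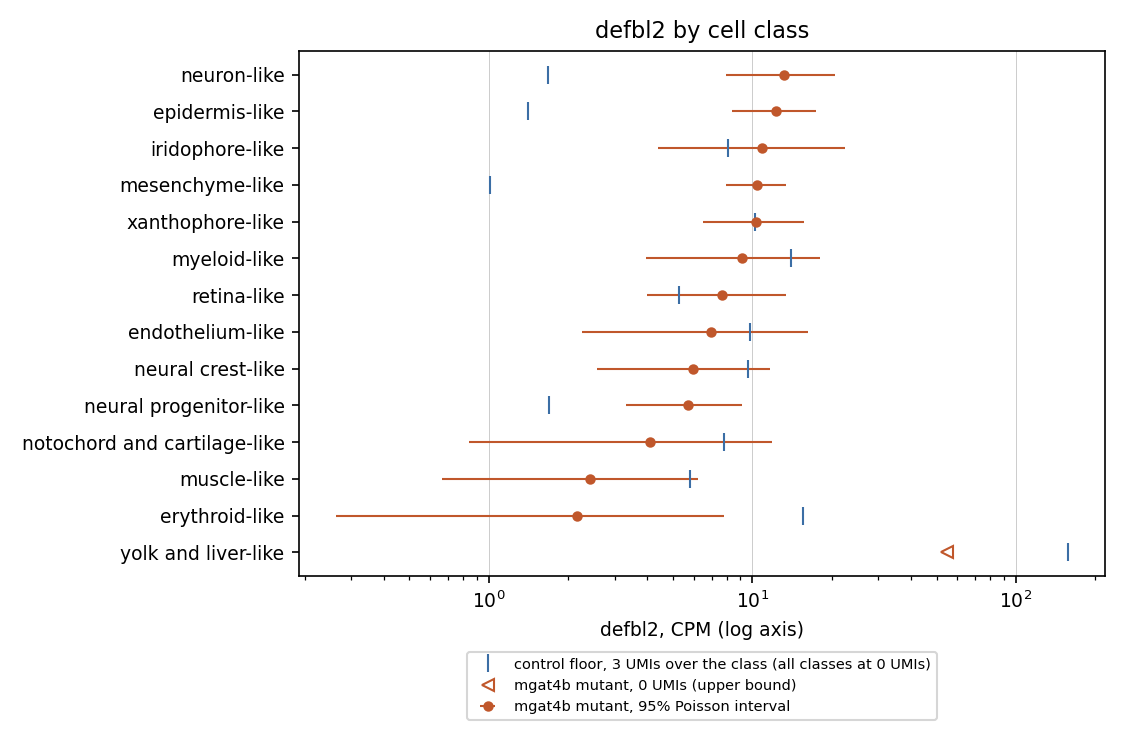
Level of *defbl2* in CPM (log axis) by cell class in the *mgat4b* mutant library (orange, with 95% Poisson intervals), ordered by level. Blue ticks mark the control floor of 3 UMIs over each class, since the control had 0 UMIs in all 14 classes. Iridophore-like cells, at 10.9 CPM, do not stand apart from neuron-like cells at 13.2 CPM or xanthophore-like cells at 10.3 CPM.

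Detection of *defbl2* followed the depth of the mutant cells. It was seen in 1.40% of cells under 1000 UMIs, 1.5% from 1000 to 3000, 4.68% from 3000 to 6000, 8.0% from 6000 to 12000 and 11.1% above that. The cells with a *defbl2* UMI had a median depth of 10077 UMIs and those without 6228.5. Its CPM lay between 7.90 and 11.1 over the 4 deeper bands and at 23.8 in the shallowest, where 5 cells had a UMI. Thinned to 836 UMIs, 0.837% of the mutant cells (0.565 to 1.19%) and 0 of 1330 control cells had a *defbl2* UMI, the latter allowing a share of cells with a UMI of up to 0.226% by a count of 3 and up to 0.277% by the Clopper-Pearson interval. In neuron-like cells the unthinned *defbl2* shares were 0% for control and 7.66% for mutant cells, and in iridophore-like cells 0% and 11.5%.

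The genes beside *defbl2* in the RefSeq order did not share its pattern. On one side *wdr73*, which encodes a WD repeat protein, had 42 control and 83 mutant UMIs, a ratio of 1.11 (0.756 to 1.65). On the other *gria4b*, which encodes a subunit of AMPA glutamate receptors, had 809 and 453, a ratio of 0.314 (0.280 to 0.353). The third family member, *defbl3*, had 3 control and 5 mutant UMIs. How often *defbl1* and *defbl2* could have exchanged reads was not tested and 12 cells held UMIs of both.

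Across the 25 clusters *defbl1*, *apoda.1* and *gpnmb* had a Pearson's r of log2(CPM + 10) between 0.95 and 0.98 with each other. For *defbl2* with each of them it was 0.05. All clusters come from the same libraries. The iridophore-like cluster is 1 of the 25 points and holds 90.8 to 95.9% of the UMIs of *defbl1*, *apoda.1* and *gpnmb*. How far r rests on that cluster was not tested. Of 18119 genes, *defbl1* was most like *apoda.1* (r = 0.97) and *akap12a*, which encodes a kinase anchoring protein (0.97). For *apoda.1* and for *gpnmb* the nearest gene was the unnamed locus *si:ch211-256m1.8*, with r of 0.98 and 0.99, of whose 1109 UMIs 94.2% were in the iridophore-like class. The nearest to *defbl2* was *sft2d3*, at 0.75, which for a gene of 277 scattered UMIs describes little. By Spearman correlation 0 of the 5 most similar genes were kept for *defbl1* and for *apoda.1*, and 1 each for *gpnmb* and *defbl2*.

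The relatives of the members were mostly found elsewhere. However, *apoda.2* had 16.3% of its 49 UMIs in iridophore-like cells, where it was at 7.91 CPM against 1.03 CPM over all cells. Of the 5 family genes in the files other than the members, 3 had at least 50 UMIs over all cells, *apodb*, *pmela* and *pmelb*. Of these 1, *pmela*, was called higher in the mutant, beside 4.09% of all 18119 genes called higher and 5.98% lower. A call among so few genes says little about the family. A further apolipoprotein D gene, *apodb*, had 543 control and 993 mutant UMIs, of which 1 lay in iridophore-like cells and 99.0% in unnamed clusters. The melanosome matrix gene *pmela* had 24 of its 908 UMIs in iridophore-like cells, and 51.4% in neural crest-like cells. It was at 11.3 CPM in control cells and 23.5 CPM in mutant cells, a ratio of 2.08 (1.77 to 2.45). Within neural crest-like cells, which numbered 19 in the control and 127 in the mutant, the ratio of *pmela* went the other way, at 0.762 (0.613 to 0.953). Its paralog *pmelb* was at 5.21 and 5.29 CPM over all cells.

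The list of iridophore genes, which was drawn up with these data known, held called genes over all cells and none within the class. Over all cells 24 of its 27 genes were tested and 8 were called higher in the mutant, none lower, beside 4.09% and 5.98% of all 18119 genes. The median log2 ratio of the list was 0.43, beside −0.15 for all genes tested, a median that TMM scaling moved to 0.00. Among the 8 were the purine synthesis genes *paics* (2.69, 2.56 to 2.84) and *impdh1b* (2.63, 2.50 to 2.78), which encode enzymes of the pathway to inosine and guanine nucleotides, and *tfec* (3.31, 2.76 to 3.99) and *mitfa* (3.54, 3.06 to 4.1), the pigment cell transcription factor genes. Xanthophore-like cells, 29 in the control and 324 in the mutant, held 66.5% of the *paics* and 61.0% of the *impdh1b* UMIs, and within that class the ratios were 1.15 (1.06 to 1.25) for *paics* and 1.51 (1.38 to 1.67) for *impdh1b*. Within iridophore-like cells 18 were tested and none was called in either direction, with a median log2 ratio of 0.09 beside −0.06 for all 2715 genes.

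Within the class *pnp4a* was at 3438 CPM in control cells and 2666 CPM in mutant cells, a ratio of 0.775 (0.721 to 0.834), while *defbl1* was at 1.11. The receptor gene *ltk* was at 319 and 543 CPM, a ratio of 1.70 (1.38 to 2.11), and *alx4a* at 1418 and 1358 CPM, a ratio of 0.957 (0.858 to 1.07). The promoter gene of the sort, *mitfa*, had 7 control and 3 mutant UMIs in the class. The targeted gene *mgat4b* had 2 control and 15 mutant UMIs there, a ratio of 4.31 with an interval of 1.0 to 38.9.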

How the data were processed

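The authors made the deposited counts with Cell Ranger (version 7.2.0 per the file headers) against Ensembl GRCz11, as whole-number UMI counts per gene and barcode, not normalized. The study's filter was applied (over 200 genes, under 5% mitochondrial UMIs) and passing cells were clustered with Seurat 5.3.0 (R 4.3.3) on 1997 features without the members, 30 anchor and 13 clustering dimensions. Resolution 1 and the use of all mutant cells departed from the study. Libraries shared 2 barcodes, none iridophore-like. No doublet caller was run and doublets were kept. A cluster was named where at least 3 markers of a class were among its top 50 genes, a rule set after leading genes had been seen. CPM, Poisson, Clopper-Pearson and exact conditional intervals (SciPy 1.17.1) were computed from summed counts, TMM factors with edgeR 4.0.16. Simulated data with known folds were used to test the size rule. The members and lists were chosen with earlier results of these data known. Named genes were the members, both gene lists, the 5 genes most like each member, *mgat4b*, and markers where a result turned on a class. The neighbours of *defbl2*, *sult5a1* and *ccl20a.3* were chosen after their values were seen. RefSeq names came from another assembly, so no coordinates or sequences are given.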

Additional observations from a re-analysis of the deposited data

Results flagged for a closer look

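The libraries differed in opposite directions between classes for *defbl1*, a contrast that was not tested because each library is 1 sample. The mutant over control ratio of *defbl1* was 1.11 in iridophore-like cells and 11.8 in neural crest-like cells, but 0.147 in myeloid-like cells. The neural crest-like ratio rests on 1 control UMI and on 1 mutant cell with 32 of the 51 mutant UMIs. The myeloid-like ratio rests on 5 control and 3 mutant UMIs. Its interval without the cell with the most *defbl1* UMIs in each library, 0.0137 to 1.43, includes 1. The control myeloid-like cells had a median depth of 888.5 UMIs and the mutant ones 13975.5. For *gpnmb* the ratio was 1.2 in iridophore-like cells and 0.121 in mesenchyme-like cells, also not tested.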

How the results depend on the processing

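The ratios over all cells depended on which cells were used. A single draw of mutant cells to the control number gave 0.759 for *defbl1*, 1.15 for *apoda.1* and 0.986 for *gpnmb*. The values of *defbl1* and *gpnmb* thus fell below 1, but the *gpnmb* interval, 0.887 to 1.1, includes 1. For *defbl2* the draw gave 42.6 times the control floor of 3 UMIs. TMM scaling gave 1.24, 1.39 and 1.33 for *defbl1*, *apoda.1* and *gpnmb* over all cells and 1.25, 1.38 and 1.36 in iridophore-like cells. The mean of per-cell CPM gave 1.31, 1.49 and 1.61 over all cells. Leaving out, in each library, the cell with the most UMIs of the gene gave 1.19, 1.39 and 1.31 over all cells. Outside the class and without the 4 high cells the ratios were 1.35, 1.26 and 0.735, the last in the other direction. A gate of at least 3 iridophore markers per cell took in 182 cells, of which 36.8% were in the cluster. The gate gave ratios of 1.51 for *defbl1*, 1.68 for *apoda.1* and 1.65 for *gpnmb*, and 4.05 times the control floor for *defbl2*. It held 98.0% of *defbl1*, 97.4% of *apoda.1*, 93.9% of *gpnmb* and 5.78% of *defbl2* UMIs. The cause of these shifts was not tested.

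Without thinning, or thinned to 4919 UMIs, the shares of all cells were 3.16 and 3.16% (control) and 3.58 and 3.46% (mutant) for *defbl1*, 2.15 and 2.37%, and 2.46 and 2.79% for *apoda.1*, 3.56 and 3.39%, and 3.29 and 2.95% for *gpnmb*, and 6.32 and 4.31% (mutant) for *defbl2*. In iridophore-like cells they were 100% in both libraries at both depths for *defbl1*. For *apoda.1* they were 100 and 93.8% (control) and 100 and 100% (mutant), for *gpnmb* 94.1 and 93.8% (control) and 100 and 95.6% (mutant), and for *defbl2* 11.5 and 8.89% (mutant).

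With at least 200 UMIs the size rule called 400 genes higher and 561 lower over all cells and 20 and 4 in the class, with fewer genes tested. TMM scaling called 720 lower over all cells and 178 higher and 48 lower in the class. By Spearman correlation 0 of the 5 most similar genes were shared with the main list for *defbl1*, 1 for *defbl2*, 0 for *apoda.1* and 1 for *gpnmb*, and a pseudocount of 1 shared 1 for *defbl2*. Of the alternative values, 77 stayed near the main value, 61 moved and 3 reversed. No paired analysis was possible because each group had 1 library. The 17 control iridophore-like cells limit every value of the class, and in the named classes with under 20 control cells the floor of 3 UMIs lies between 5.82 and 158 CPM.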
